A study of Mus musculus with 12 samples.

Results

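The mouse mitochondrial genome encodes a small set of respiratory chain proteins, and their messages were followed here across 11 libraries of whole colon. Every gene whose symbol in the deposited transcript table starts with mt- was taken, which gave 13 of the 35688 genes in the table. All 13 are protein-coding, each has 1 transcript without introns, and all 13 passed the filter on low values. The GENCODE annotation of the mitochondrial chromosome (mm10, chrM) also holds 2 rRNA and 22 tRNA genes; no row with such a symbol was in the table used here, so they were not analysed.

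The mice were 2 weeks old and lacked interleukin 10 (Il10-/-, a genotype prone to spontaneous colitis) or lacked both interleukin 10 and the TNF receptor 1 gene Tnfrsf1a (Il10-/- Tnfr1-/-). Both groups therefore carry the Il10 deletion, and no Il10-sufficient colon is among the samples. The labels describe 6 mice of each genotype; 11 of the 12 samples have a matching column, so the comparison was 5 Il10-/- against 6 Il10-/- Tnfr1-/- mice, each library from the full thickness of the colon of 1 mouse. The labels name no promoter, Cre, litter, sex or batch. Tnfrsf1a itself ranged from 30.6 to 78.1 in Il10-/- and from 12.0 to 17.0 in Il10-/- Tnfr1-/- libraries, with no overlap, on the same abundance scale as all values below.

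Mitochondrial messages are transcribed as long polycistronic RNAs from both strands of a circular genome, cut out largely at the tRNAs that lie between them, and translated inside the organelle. The proteins are core subunits of complexes I, III and IV, which pump protons, and of the ATP synthase (complex V), and they are assembled with nuclear-encoded partners. In the colon, epithelium and muscle both depend on oxidative phosphorylation, and colonocytes in particular oxidize butyrate in their mitochondria.

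The 13 messages comprise 7 for complex I (mt-Nd1, mt-Nd2, mt-Nd3, mt-Nd4, mt-Nd4l, mt-Nd5 and mt-Nd6), mt-Cytb for complex III, 3 for complex IV (mt-Co1, mt-Co2 and mt-Co3) and 2 for complex V (mt-Atp6 and mt-Atp8). Adjacent coding regions overlap in places. mt-Nd4l shares 7 bases with mt-Nd4, mt-Atp8 shares 43 bases with mt-Atp6, and mt-Nd5 shares 14 bases with mt-Nd6, which lies on the opposite strand. A read inside a shared stretch fits both genes, and the sources used here do not say whether the authors' quantification used the strand. The 2 short messages with overlapping partners are shown whole because their ratios to those partners are described below. mt-Nd4l is at chrM:9877-10173 (plus strand, mm10), with the bases shared with mt-Nd4 in capitals, and mt-Atp8 is at chrM:7766-7969 (plus strand), with the bases shared with mt-Atp6 in capitals; both sequences are from the GENCODE transcripts.
mt-Nd4l: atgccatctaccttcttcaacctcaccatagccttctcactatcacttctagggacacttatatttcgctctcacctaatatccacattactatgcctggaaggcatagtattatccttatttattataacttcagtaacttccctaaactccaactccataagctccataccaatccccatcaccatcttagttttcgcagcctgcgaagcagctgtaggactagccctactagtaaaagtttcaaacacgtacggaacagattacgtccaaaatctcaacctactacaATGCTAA
mt-Atp8: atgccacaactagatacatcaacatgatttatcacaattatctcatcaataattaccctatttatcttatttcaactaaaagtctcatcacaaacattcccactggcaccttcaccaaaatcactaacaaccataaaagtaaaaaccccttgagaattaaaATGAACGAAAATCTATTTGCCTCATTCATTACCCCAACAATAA

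Parts of these messages also exist in the nucleus. A run of 7 unprocessed pseudogenes between positions 24611535 and 24616197 of chromosome 1 (mm10, minus strand) matched mitochondrial transcripts at over 99% identity. Gm10925 matched 678 bases of mt-Atp6, Gm28661 matched 681 bases of mt-Co2, Gm28437 matched 783 bases of mt-Co3, Gm28439 matched 876 bases of mt-Nd4 and Gm10222 matched 294 bases of mt-Nd4l, each without a mismatch. Gm29216 matched the last 483 bases of mt-Co1 with 1 difference, and Gm28438 matched 345 bases of mt-Nd3 with 1 difference. The windows around these differences are shown because a read that lies within a matched stretch and does not cross the capital base cannot be assigned to the gene or to its copy from its sequence. Counted from the first base of the mitochondrial transcript, with the mitochondrial base first, the differences are A1066T in mt-Co1 (chrM:6390-6413 and chr1:24616165-24616188) and T3C in mt-Nd3 (chrM:9459-9481 and chr1:24613097-24613119). The copies are written on the minus strand, in the same sense as the gene.
mt-Co1: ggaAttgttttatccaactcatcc
Gm29216: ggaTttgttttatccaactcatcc
mt-Nd3: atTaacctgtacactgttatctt
Gm28438: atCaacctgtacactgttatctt

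For mt-Co2, Gm28661 lacks only the last 3 bases, in capitals in the end of the message (chrM:7656-7696, plus strand).
mt-Co2: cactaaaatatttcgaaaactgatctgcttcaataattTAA

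The values are abundances that, judged from the deposited values, are per transcript length, so levels of different genes can be set side by side only with limits. mt-Atp8 and mt-Atp6 share a message, yet their ratio ran from 0.0271 to 0.104 over the libraries. For genes with a near-identical nuclear copy the listed value is a part of a joint signal. The ranks and shares below are therefore those of the listed values. They are not read counts, and the depth of each library is unknown. On this scale the mitochondrial messages were among the most abundant RNAs of the colon. By mean abundance over the 11 libraries mt-Co2, mt-Co1, mt-Co3 and mt-Atp6 held ranks 2 to 5 of all genes, mt-Cytb rank 6, mt-Nd1 rank 8, mt-Nd6 rank 10 and mt-Nd4 rank 11. Lower in the order were mt-Nd4l (rank 24), mt-Nd2 (rank 30), mt-Nd3 (rank 40), mt-Nd5 (rank 45) and mt-Atp8 (rank 87). Rank 1 was held by Gm29216, the chromosome 1 copy of the end of mt-Co1.

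The 13 genes together made up 17.0%, 22.2%, 9.57%, 20.9% and 13.1% of the library total in Il10-/- replicates 1, 2, 3, 5 and 6 (16.5% ± 5.29, SD, n = 5). In Il10-/- Tnfr1-/- replicates 1 to 6 they made up 27.0%, 16.4%, 15.9%, 19.8%, 16.9% and 12.2% (18.03% ± 5.02, SD, n = 6). The lowest share was in Il10-/- replicate 3 and the highest in Il10-/- Tnfr1-/- replicate 1, and the groups overlapped over most of their range. The means differed by 1.48 percentage points, which is smaller than the spread within either genotype. Without Il10-/- replicate 3 the difference was -0.26 points and without Il10-/- Tnfr1-/- replicate 1 it was -0.31 points. The sample names start with a digit from 1 to 4 whose meaning the labels do not give; names starting with 1 cover 3 Il10-/- and 2 Il10-/- Tnfr1-/- mice, and the other digits hold 1 genotype each. Among the names starting with 1 the mean shares were 16.2% and 21.7%. With 3 mice against 2 no exact test can give a p below 0.1, and elsewhere the digit and the genotype cannot be told apart.

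**Figure D1:**
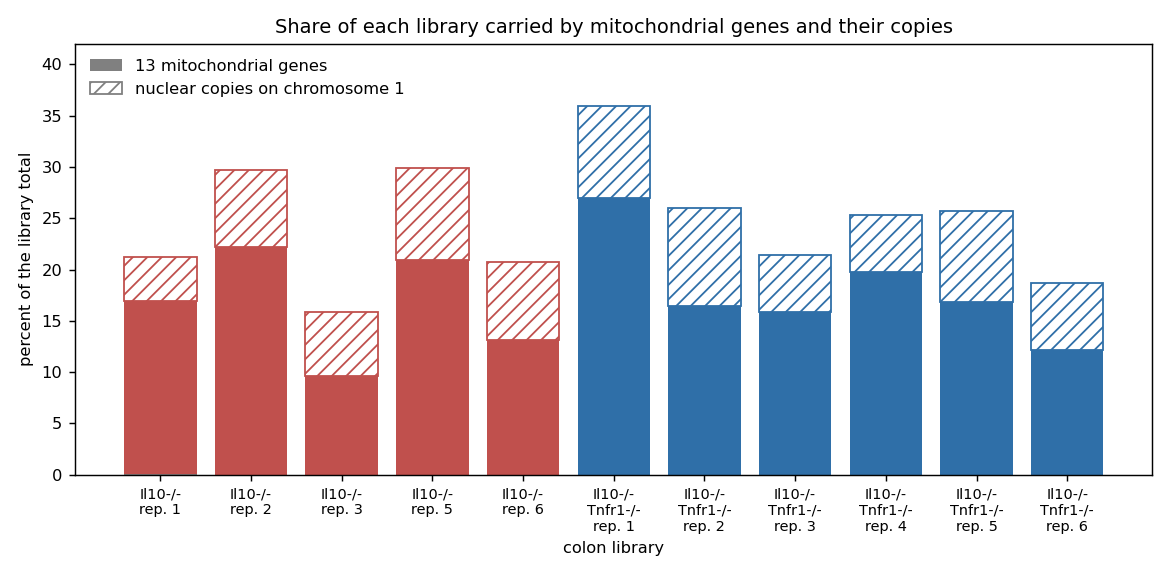
Percent of the library total (y axis, from 0) carried by the 13 mitochondrial genes (solid) and by their near-identical copies on chromosome 1 (hatched), with 1 bar for each colon library. The solid parts run from 9.57% to 22.2% in Il10-/- and from 12.2% to 27.0% in Il10-/- Tnfr1-/- libraries.

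The complex IV messages carried most of the mitochondrial signal. mt-Co1, mt-Co2 and mt-Co3 together made up 50.6% to 75.3% of the summed abundance of the 13 genes in Il10-/- and 50.5% to 68.3% in Il10-/- Tnfr1-/- libraries. The 7 complex I messages made up 12.6% to 24.0% and 12.6% to 26.2%. The 2 complex V messages made up 7.14% to 16.7% and 13.005% to 16.8%, and mt-Cytb made up 4.99% to 8.67% and 3.87% to 8.54%.

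Among the complex I messages, mt-Nd4l was the most variable of all 13 genes (coefficient of variation 62.3% over the 11 libraries). It encodes a small membrane subunit of complex I. Its abundance was 5563, 6246, 811, 2821 and 854 in Il10-/- replicates 1, 2, 3, 5 and 6. In Il10-/- Tnfr1-/- replicates 1 to 6 it was 5763, 3503, 6176, 6809, 1688 and 1518. Both genotypes held libraries with high and with low values, and the lowest, Il10-/- replicates 3 and 6, were below every Il10-/- Tnfr1-/- library. The log2 fold change from Il10-/- to Il10-/- Tnfr1-/- was 0.63 ± 0.63 (SE; limma adjusted p = 0.655). It was 0.25 without Il10-/- replicate 3, 0.27 without Il10-/- replicate 6 and 0.99 without Il10-/- replicate 2. As a share of the 13 genes, mt-Nd4l ran from 0.473% in Il10-/- replicate 6 to 4.83% in Il10-/- Tnfr1-/- replicate 3, a 10.2-fold range.

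mt-Nd5, the gene of a large proton-pumping subunit of complex I, was the next most variable (coefficient of variation 60.9%). Its abundance was 3171, 3638, 495, 2314 and 652 in the 5 Il10-/- libraries. In the Il10-/- Tnfr1-/- libraries the lowest value was 929, the median 2726 and the highest 4686. Il10-/- replicates 3 and 6 were again the lowest, and the groups overlapped. The log2 fold change was 0.60 ± 0.61 (SE; limma adjusted p = 0.658), and it was 0.19 without Il10-/- replicate 3, 0.29 without Il10-/- replicate 6 and 0.91 without Il10-/- replicate 2. Its share of the 13 genes had a 7.61-fold range over the 11 libraries.

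mt-Nd2, a further antiporter-like subunit of complex I, was at 3717, 3897, 918, 3691 and 1205 in the Il10-/- libraries and between 1302 and 5623 (median 2750) in the Il10-/- Tnfr1-/- libraries. mt-Nd4, the partner of mt-Nd4l, ran from 2669 to 8003 and from 2653 to 10122, and mt-Nd1, which helps form the quinone-binding site, ran from 4806 to 12687 and from 5703 to 16669. These 3 genes had log2 fold changes of 0.32 ± 0.48, 0.18 ± 0.41 and 0.11 ± 0.33 (SE). mt-Nd3, a small complex I subunit, ran from 1511 to 4262 in Il10-/- and from 1251 to 4961 in Il10-/- Tnfr1-/- libraries, with a log2 fold change of -0.27 ± 0.37 (SE). mt-Nd6 is the complex I message encoded on the strand opposite to all the others, and ran from 3254 to 9718 and from 2733 to 11566, with a log2 fold change of -0.21 ± 0.37 (SE).

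mt-Cytb, the catalytic cytochrome b of complex III, was at 13695, 13954, 5978, 14611 and 9009 in the Il10-/- libraries. In the Il10-/- Tnfr1-/- libraries its lowest value was 5037, its median 10762 and its highest 18883. The ranges overlapped almost entirely, and the log2 fold change was -0.07 ± 0.36 (SE).

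Among the complex IV messages, mt-Co3, a structural core subunit, was the steadiest of the 13 genes in its share of them, from 15.5% to 20.5%, and had the lowest coefficient of variation in level (30.0%). Its abundance averaged 31086 ± 10959 (SD, n = 5) across Il10-/- and 30741 ± 8709 (SD, n = 6) across Il10-/- Tnfr1-/- libraries, a log2 fold change of 0.02 ± 0.31 (SE). mt-Co2, which carries the copper site that accepts electrons from cytochrome c, was at 27031, 38268, 30945, 53570 and 77999 in the Il10-/- libraries. In the Il10-/- Tnfr1-/- libraries its lowest value was 16673, its median 34075 and its highest 58157. Il10-/- replicate 6 held the highest level of any mitochondrial gene in any library, and mt-Co2 was 43.2% of its 13-gene sum against 13.04% in Il10-/- Tnfr1-/- replicate 3. That level is not scaled to the library total, which was also the highest in Il10-/- replicate 6 (1378971). As a percent of the total, mt-Co2 was 5.66% there and 5.50% in Il10-/- Tnfr1-/- replicate 1. The log2 fold change of mt-Co2 was -0.36 ± 0.37 (SE; limma adjusted p = 0.656), and it was -0.14 without Il10-/- replicate 6 and -0.17 without Il10-/- Tnfr1-/- replicate 3.

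mt-Co1, the catalytic subunit of complex IV, was at 28490, 41871, 12968, 38496 and 20856 in the Il10-/- libraries. Its values in the Il10-/- Tnfr1-/- libraries ran from 26211 (median 30683) to 55092, the last in replicate 1. The log2 fold change was 0.33 ± 0.33 (SE; limma adjusted p = 0.660), and it was 0.07 without Il10-/- replicate 3, 0.18 without Il10-/- Tnfr1-/- replicate 1 and 0.50 without Il10-/- replicate 2. Il10-/- replicates 3 and 6 lay below every Il10-/- Tnfr1-/- library for mt-Co1 also.

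For complex V, mt-Atp8 had the largest log2 fold change of the 13 genes, 0.76 ± 0.48 (SE; limma adjusted p = 0.540). It encodes a small peripheral subunit of the ATP synthase. Its abundance was 1876, 2142, 302, 1519 and 498 in the Il10-/- libraries. In the Il10-/- Tnfr1-/- libraries the lowest value was 1250, the median 1706 and the highest 2185. The low Il10-/- values were again those of replicates 3 and 6, and the log2 fold change was 0.33 without replicate 3. mt-Atp6, which forms the proton channel, ran from 11156 to 36804 and from 17166 to 45834, with a log2 fold change of 0.18 ± 0.37 (SE).

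**Figure D2:**
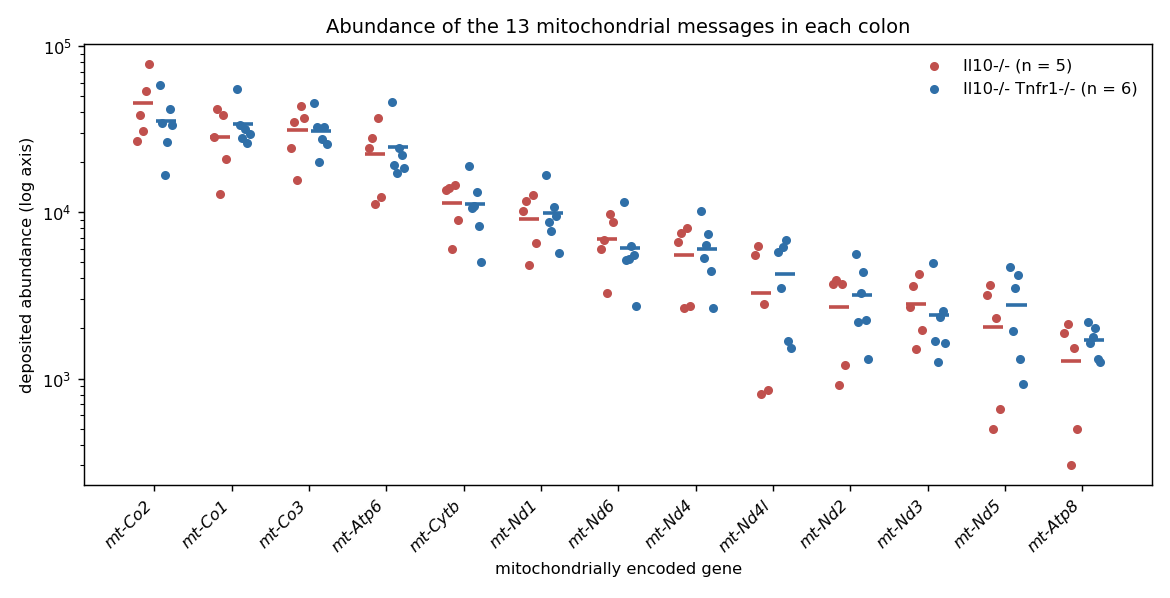
Deposited abundance (y axis, log scale) of the 13 mitochondrial genes in each library, ordered by mean level, with Il10-/- (n = 5) and Il10-/- Tnfr1-/- (n = 6) points side by side and a line at each group mean. The groups overlap for every gene, and mt-Nd4l, mt-Nd5 and mt-Atp8 show the low Il10-/- values of replicates 3 and 6.

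Across the genome, limma on log2(value + 0.5) tested 13293 genes, of which 0% (0 genes) passed an adjusted p of 0.05 and 8.40% passed an unadjusted p of 0.05 (639 genes higher and 478 lower in Il10-/- Tnfr1-/-). None of the 13 mitochondrial genes passed either threshold, and their adjusted p ran from 0.540 to 0.976. In 0.587% of all genes the groups did not overlap; this held for 0 of the 13. The log2 fold change was above 0 for 9 of the 13 and below 0 for 4 (mt-Co2, mt-Nd3, mt-Nd6 and mt-Cytb). Of the 13293 genes tested, it was above 0 for 7341 and below 0 for 5952. Its median over the 13 was 0.18 against 0.05 over all genes tested. The count of the 13 above 0 and their median both moved when 1 library was left out. Without Il10-/- replicate 3 only 4 of the 13 were above 0 and the median was -0.05, and without Il10-/- Tnfr1-/- replicate 1 it was 6 of the 13 and -0.01. Without Il10-/- replicate 6 the median was 0.02 with 8 of the 13 above 0, without Il10-/- Tnfr1-/- replicate 4 it was 0.09, and without Il10-/- replicates 2 and 5, each left out alone, it was 0.30 and 0.35. The standard errors of 0.31 to 0.63 on the log2 scale set what could be seen with these libraries, so a p above the threshold does not show that the genotypes are alike. Among the names starting with 1, all 13 were higher in the 2 Il10-/- Tnfr1-/- mice, with log2 fold changes from 0.24 ± 0.59 to 0.82 ± 0.90 (SE). None of the 13 had an unadjusted limma p under 0.05 there. These mice include Il10-/- replicate 3 and Il10-/- Tnfr1-/- replicate 1, the libraries of lowest and highest mitochondrial share. The other Il10-/- Tnfr1-/- mouse had a share of 16.4%, below the 17.0% and 22.2% of Il10-/- replicates 1 and 2. In the authors' deposited table the q-values of the 13 genes ran from 0.684 to 0.945 and the log2 folds from -0.39 to 0.49.

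The shares of the 13 genes had ranges over the libraries from 1.33-fold (mt-Co3) to 10.2-fold (mt-Nd4l). Il10-/- replicate 6 had the smallest share of the 13 genes for mt-Nd1, mt-Nd2, mt-Co1, mt-Atp8, mt-Atp6, mt-Nd4l, mt-Nd4 and mt-Nd5, and the largest for mt-Co2, mt-Co3 and mt-Nd6. Il10-/- Tnfr1-/- replicate 3 stood at the other end for mt-Nd4l, mt-Nd5, mt-Nd4, mt-Atp8 and mt-Co2.

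**Figure D3:**
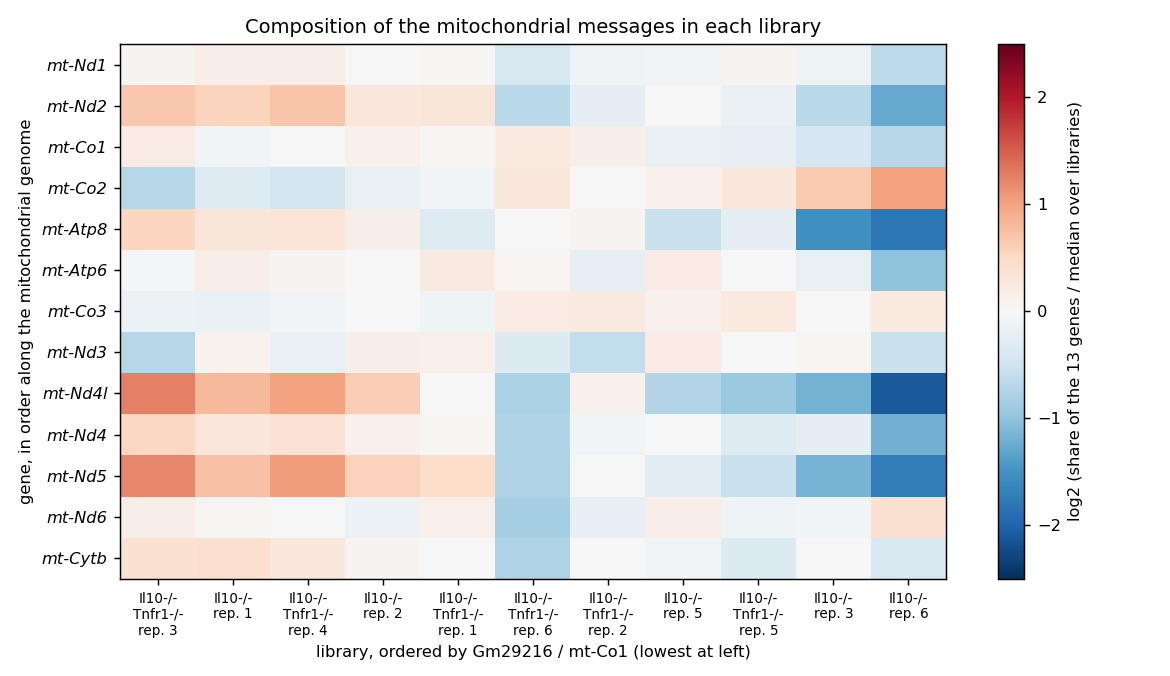
Share of the 13-gene sum as log2 of its ratio to the median over libraries (colour, red above and blue below), with genes in genome order on the y axis and the 11 libraries on the x axis ordered by the ratio of Gm29216 to mt-Co1. mt-Nd4l, mt-Nd5, mt-Nd2 and mt-Atp8 are mostly red at the left and blue at the right, mt-Co2 runs the other way, and both genotypes are found at either side.

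Pairs of genes chosen by their place in the genome were compared as log2 ratios, and the genotype difference was tested with exact two-sided permutation of the libraries (462 assignments) and Benjamini-Hochberg adjustment over 6 pairs. The ratio of mt-Nd4l to mt-Nd4, which share a bicistronic message, was 0.837, 0.8294, 0.304, 0.352 and 0.314 in the Il10-/- libraries. In the Il10-/- Tnfr1-/- libraries it ran from 0.381 (median 0.614) to 0.977. The log2 difference between genotypes was 0.46 (exact permutation p = 0.262, adjusted p = 0.262). The ratio therefore separated Il10-/- replicates 1 and 2 from replicates 3, 5 and 6 and did not separate the genotypes.

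mt-Atp8 and mt-Atp6 also share a message. Their ratio ran from 0.0271 to 0.0768 in Il10-/- and from 0.0477 to 0.104 in Il10-/- Tnfr1-/- libraries, a log2 difference of 0.57 (exact permutation p = 0.104, adjusted p = 0.262). The ratio of the light-strand message mt-Nd6 to its neighbour mt-Nd5 was 1.89, 1.87, 6.57, 4.20 and 13.3 in the Il10-/- libraries and ran from 1.49 (median 2.57) to 4.22 in the Il10-/- Tnfr1-/- libraries. Its log2 difference was -0.82 (exact permutation p = 0.182, adjusted p = 0.262), and its 8.94-fold range over the 11 libraries was the widest of the 6 pairs. Since it is not known whether the quantification used the strand, the 2 entries need not hold only reads of their own strand. The ratio is therefore one of listed values and not a measured balance between the strands. mt-Cytb over mt-Nd1 had the narrowest range, 1.65-fold, with a log2 difference of -0.19 (exact permutation p = 0.240). mt-Co3 over mt-Co1 differed by -0.30 (exact permutation p = 0.199) and mt-Nd3 over mt-Co3 by -0.30 (exact permutation p = 0.255). All 6 pairs had an adjusted p of 0.262, and none was called.

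The chromosome 1 copies carried 4.28% to 8.999% of the library total in Il10-/- and 5.48% to 9.51% in Il10-/- Tnfr1-/- libraries, which with the 13 genes came to 15.9% to 29.9% and 18.7% to 35.9%. Most of this was Gm29216, the entry for the end of mt-Co1. Its abundance was 28378, 53429, 54890, 87566 and 91340 in the Il10-/- libraries. In the Il10-/- Tnfr1-/- libraries the lowest value was 26554, the median 65539 and the highest 84840. It was the top entry in every library but Il10-/- replicate 1 and Il10-/- Tnfr1-/- replicate 3, where mt-Co1 was. Its log2 fold change was -0.13 ± 0.40 (SE; limma adjusted p = 0.889).

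Gm28438 took 38.4% to 50.1% of its summed abundance with mt-Nd3 in Il10-/- and 33.7% to 65.9% in Il10-/- Tnfr1-/- libraries. Gm10925 took 7.24% to 33.2% and 3.75% to 34.2% of its sum with mt-Atp6. Gm28661 took 0.0599% to 21.3% and 7.84% to 35.2% of its sum with mt-Co2, the lowest in Il10-/- replicate 3, where it was listed at 18.6 against 4058 to 7307 in the other Il10-/- libraries. Its log2 fold change was 1.69 ± 1.31 (SE; limma adjusted p = 0.585), and 0.04 without that library. Gm28437 reached at most 4.45% of its sum with mt-Co3, with a log2 fold change of 1.56 ± 1.01 (SE; limma adjusted p = 0.546), and it was 0.77 without Il10-/- replicate 3 and 0.99 without Il10-/- Tnfr1-/- replicate 3.

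Gm28439 and Gm10222, the copies of mt-Nd4 and mt-Nd4l, were listed at 0 in all 11 libraries. None of the other 5 copies was called between genotypes. Copies at or below 99% identity, 10 transcripts of 9 genes, had mean abundances of at most 17.97. The abundance of a mitochondrial gene with a near-identical copy is thus a part of a joint signal, and how it was divided cannot be checked from the deposited values. With each copy added to its gene by length, the log2 fold change of mt-Co1 was 0.12 in place of 0.33, that of mt-Co2 was -0.23 in place of -0.36 and that of mt-Nd3 was -9e-06 in place of -0.27. The log2 difference of mt-Co3 over mt-Co1 was then -0.08 and that of mt-Nd3 over mt-Co3 -0.03, both in place of -0.30, and none of the 13 genes passed the adjusted threshold.

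**Figure D4:**
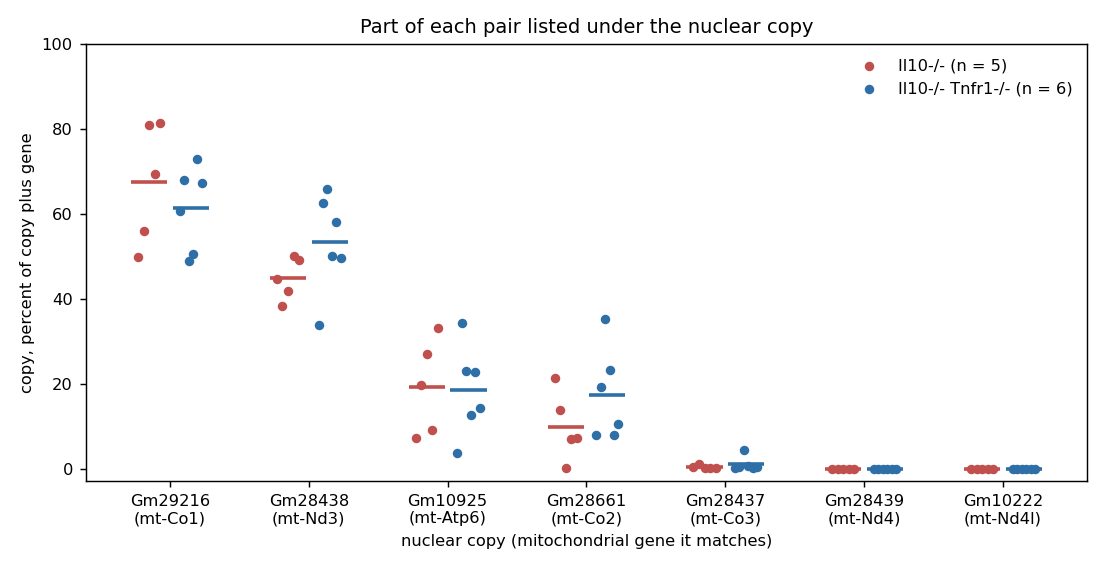
Abundance of each chromosome 1 copy as a percent of the copy plus its mitochondrial gene (y axis), with 1 point for each library and a line at each group mean. Gm29216 lies between 48.8% and 81.4%, while Gm28439 and Gm10222 lie at 0 in every library.

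The ratio of Gm29216 to mt-Co1 differed between libraries from 0.953 to 4.38 and ran with the balance between other messages. The relation was noticed in these data and then computed, for the 5 ratios that do not contain mt-Co1. It was taken over 11 libraries with 100000 permutations and Benjamini-Hochberg adjustment over the 5. The p-values do not account for the relation having been picked from these same libraries, so they describe it and are no independent test of it. With mt-Nd4l over mt-Nd4, Pearson's r of the log2 ratios was -0.940 (permutation p = 5e-05, adjusted p = 0.000125) and Spearman's rho was -0.936 (permutation p = 0.0001, adjusted p = 0.00025). Without the 2 libraries farthest from the median, Il10-/- Tnfr1-/- replicate 3 and Il10-/- replicate 6, r was -0.913. Within the 6 Il10-/- Tnfr1-/- libraries alone it was -0.910.

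With mt-Nd6 over mt-Nd5, r was 0.948 (permutation p = 1e-05, the smallest these permutations can give, adjusted p = 5e-05) and rho was 0.945 (permutation p = 7e-05, adjusted p = 0.00025). Without the same 2 libraries r was 0.964, and within Il10-/- Tnfr1-/- it was 0.976. The limit on strand given above for this ratio holds here also. With mt-Atp8 over mt-Atp6, r was -0.803 (permutation p = 0.00335, adjusted p = 0.00558) and rho was -0.773 (permutation p = 0.0071, adjusted p = 0.0118). Without the 2 libraries r was -0.734, and within Il10-/- Tnfr1-/- it was -0.519. For mt-Cytb over mt-Nd1, r was -0.231 (permutation p = 0.495, adjusted p = 0.495) and rho -0.236 (permutation p = 0.486, adjusted p = 0.486), while r was -0.810 within Il10-/- Tnfr1-/-. For mt-Nd3 over mt-Co3, r was -0.305 (permutation p = 0.356, adjusted p = 0.445) and rho -0.318 (permutation p = 0.342, adjusted p = 0.428), with r at -0.187 within Il10-/- Tnfr1-/-. No r is given for the 5 Il10-/- libraries or for the 5 with names starting with 1, since r is reported only over 6 or more. The r within Il10-/- Tnfr1-/- therefore has no counterpart here from the other genotype. All ratios of a library come from the same RNA and the same estimates.

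**Figure D5:**
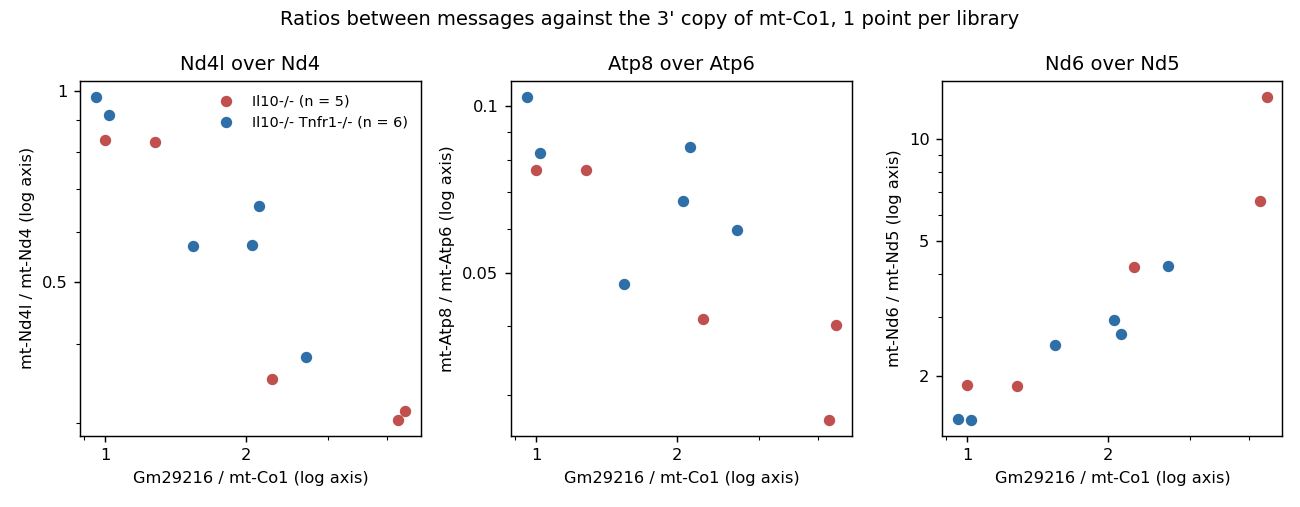
Ratio of Gm29216 to mt-Co1 (x axis, log scale) against mt-Nd4l over mt-Nd4, mt-Atp8 over mt-Atp6 and mt-Nd6 over mt-Nd5 (y axes, log scale), with 1 point for each of 5 Il10-/- and 6 Il10-/- Tnfr1-/- libraries. Pearson's r of the log2 values is -0.940, -0.803 and 0.948, and the genotypes are interleaved along the x axis except at its right end, where Il10-/- replicates 3 and 6 lie.

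Other features of the libraries went along with this order in part. From the lowest to the highest ratio of Gm29216 to mt-Co1, the share of transcripts listed at 0 was 42.1%, 43.2%, 41.7%, 47.2%, 47.9%, 48.4%, 49.8%, 51.0%, 46.7%, 50.9% and 55.1%. The library total was 804109 in the library of lowest ratio (Il10-/- Tnfr1-/- replicate 3) and 1378971 in that of the highest (Il10-/- replicate 6). The sources used here give neither RNA quality nor read depth, and their part in the balance between messages was not tested.

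Cell type markers were set beside the mitochondrial values, since in bulk tissue fewer cells of a type and less RNA per cell cannot be told apart. Of the 13293 genes tested, 7341 had a log2 fold change above 0 and 5952 below. All 10 smooth muscle markers had a log2 fold change above 0, 9 of them at an unadjusted p under 0.05, against 4.81% of all genes in that direction, and none after adjustment, with a median of 1.79. Their summed abundance ran from 185 to 3506 in Il10-/- and from 829 to 8021 in Il10-/- Tnfr1-/- libraries. In the order of the Gm29216 ratio, from the lowest, the sums were 8021, 893, 7177, 836, 2856, 829.0, 858, 185, 2170, 3506 and 201. Among the names starting with 1 the sums were 893, 836 and 3506 in Il10-/- and 2856 and 858 in Il10-/- Tnfr1-/- libraries. The highest sums (8021 and 7177) and the lowest (185 and 201) came from names starting with other digits, each of which holds 1 genotype. The digit and the genotype cannot be told apart there, and the 10 markers are not independent of each other. Of 12 colon epithelial markers, 4 had a log2 fold change above 0 and 8 below, 0 passed an unadjusted p of 0.05, and none was at 0 in any library. Their sums ran from 7133 to 13190 in Il10-/- and from 5626 to 11558 in Il10-/- Tnfr1-/- libraries except replicate 6, where the sum was 49174. The 6 stromal markers had a median log2 fold change of 0.98, 2 of them higher at an unadjusted p under 0.05, with sums of 47.2 to 361 and 184 to 1532, and the 6 enteric neuron and glia markers one of 1.08, with sums of 5.63 to 316 and 31.5 to 179. Of 8 leukocyte markers 6 were tested, 4 with a log2 fold change above 0 and 2 below, the latter 2 at an unadjusted p under 0.05 (3.60% of all genes in that direction), with sums of 41.8 to 237 and 18.4 to 172. The 5 erythroid markers, 1 of them higher at an unadjusted p under 0.05, summed to 72.6 to 240 and 96.5 to 658. Adipoq and Ucp1 of the adipose list and Myh1, Myh2 and Myh6 of the skeletal and heart muscle list were listed at 0 in at least 1 library; these lists summed to 14.2 to 61.0 and 39.0 to 150, and to 5.38 to 48.8 and 11.8 to 94.7, with 1 muscle marker higher at an unadjusted p under 0.05. The part of any of these cell types in the mitochondrial values was not tested.

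Nuclear genes that make, process or complement the mitochondrial messages were examined as lists, and 0 of their members passed the adjusted threshold. An unadjusted p under 0.05, which 8.40% of all genes had, was found for Mterf1b, Fastkd2, Grsf1 and Rrm2b. Counts of higher and lower genes refer to the sign of the log2 fold change from Il10-/- to Il10-/- Tnfr1-/-. Of the 13293 genes tested, 7341 were higher and 5952 lower. Of 9 genes of mitochondrial transcription, 5 were higher and 4 lower. Polrmt, the mitochondrial RNA polymerase, averaged 30.2 ± 14.7 (SD, n = 5) across Il10-/- and 20.5 ± 4.20 (SD, n = 6) across Il10-/- Tnfr1-/- libraries, and Tfam, which packages mitochondrial DNA and starts transcription, was at 29.7 ± 6.85 and 33.5 ± 4.12. Mterf1b, a terminator family member, was at 2.39 ± 0.60 and 1.57 ± 0.29, and Tfb2m, the promoter-melting factor, had a log2 fold change of 0.35 ± 0.21 (SE; limma adjusted p = 0.537).

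Of 14 genes of mitochondrial RNA processing, 5 were higher and 9 lower. Fastkd2, an RNA-granule protein needed for ribosome assembly, was at 40.7 ± 20.8 (SD, n = 5) and 22.6 ± 2.38 (SD, n = 6), a log2 fold change of -0.71 ± 0.25 (SE; limma adjusted p = 0.535). Grsf1, an RNA-granule protein that binds light-strand transcripts among others, was at 24.1 ± 7.91 and 32.8 ± 5.05. Of 7 genes of message stability and decay, 5 were higher and 2 lower. Lrpprc and Slirp, which form a complex that stabilizes mitochondrial messages, had log2 fold changes of 0.19 ± 0.18 and -0.37 ± 0.18 (SE), and Supv3l1, the helicase of the degradosome, one of -0.38 ± 0.21 (SE). Of 12 genes of mitochondrial DNA maintenance, 3 were higher and 9 lower. Rrm2b, a ribonucleotide reductase subunit, was at 1.51 ± 0.43 and 2.70 ± 0.90, and Polg, the DNA polymerase, at 47.0 ± 21.8 and 29.5 ± 4.50. The lowest values of Rrm2b (0.976) and Mterf1b (1.07) lay near the filter value of 1. The log2 fold change of Rrm2b was 0.78, 0.65 and 0.54 with pseudocounts of 0.1, 0.5 and 1.

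Among the nuclear-encoded subunits, the log2 fold change was below 0 for 32 of 36 of complex I (median log2 fold change -0.23), 10 of 10 of complex IV (-0.19), 12 of 15 of complex V (-0.26) and 5 of 9 of complex III (-0.05), and above 0 for 3 of 4 of complex II (0.06), which has no mitochondrially encoded subunit. None of these 74 genes had an unadjusted p under 0.05. Of all 13293 genes tested, 5952 had a log2 fold change below 0. Il10-/- replicate 6 held the highest complex I sum, 17136, against 7290 to 10742 in the other Il10-/- libraries. It also held the highest sums for complexes III, IV and V. These sums are not scaled to the library total, which was 1378971 in this library and at most 1106904 in the others. As a share of the total, the 70 subunits of complexes I, III, IV and V made up 4.97% there. They made up 4.77% in Il10-/- Tnfr1-/- replicate 6 and 4.56% in Il10-/- replicate 3. Without Il10-/- replicate 6 the log2 fold change of Ndufb2 was -0.25 in place of -0.47. With 1 library left out, Cox5b ran from -0.62 to -0.19 and Atp5e from -0.90 to -0.25. The 2 genes of smallest p in each list were Ndufb2 (log2 fold change -0.47 ± 0.24, SE) and Ndufa6 (-0.36 ± 0.24) for complex I, Sdhc (0.41 ± 0.26) and Sdhd (-0.08 ± 0.19) for complex II, Uqcrc2 (0.40 ± 0.27) and Uqcrq (-0.49 ± 0.38) for complex III, Cox5b (-0.44 ± 0.32) and Cox7a2 (-0.24 ± 0.29) for complex IV, and Atp5e (-0.65 ± 0.41) and Atp5d (-0.43 ± 0.29) for complex V.

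The 13 mitochondrial genes summed to 2.10 to 5.998 times the 70 nuclear subunits of complexes I, III, IV and V in Il10-/- and to 2.56 to 8.45 times in Il10-/- Tnfr1-/- libraries. For complex I the ratio of mitochondrial to nuclear messages ran from 1.32 to 5.50 and from 1.44 to 7.37. For complex IV it ran from 4.10 to 10.2 and from 4.84 to 13.6, for complex V from 0.626 to 3.18 and from 1.37 to 5.06, and for mt-Cytb over the nuclear subunits of complex III from 0.904 to 3.31 and from 0.763 to 4.15. The groups overlapped for each ratio.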

How the data were processed

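RNA was measured in full-thickness colon of 2-week-old mice; per the labels' protocols, stranded mRNA libraries were read single-end. Build mm10 and the tools CASAVA, kallisto and sleuth, with no version of any, come from the submitters' processing notes. The deposited abundances are a signal per transcript length, judged from the values. Library sums differ, and no header names a scaling. They are not counts, and depth is unknown. The p-values, q-values, log2 folds, fold ratios and natural log means in the table are the authors' own. Of the per-sample columns 1 matched no title and was not used; Il10-/- replicate 4 had no column. Replicates are separate mice, numbered in accession order.

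The 866 repeated rows were dropped and 113193 transcripts were summed to 35688 genes. Genes above a value of 1 in 6 or more libraries were tested with limma 3.58.1 (trend, robust; R 4.3.3) on log2(value + 0.5), Benjamini-Hochberg over all 13293 genes, threshold 0.05, and the script was tested on simulated data. Fold changes on this scale understate those of low genes. Ratios used exact permutation over all assignments (python 3.11.15, numpy 2.4.6). Of 8 planned pairs, the 2 with an rRNA could not be computed. Copies were found with blastn 2.17.0 (at least 90% identity over 90 bases) against GENCODE M21 transcripts; 1 near-identical copy, Gm10222, was added to the earlier list in this way. All 13 members are named, with the copies, and of each nuclear list the 2 genes of smallest p plus Polrmt, Tfam, Lrpprc and Slirp. The members, lists and tests were chosen with earlier results of these data known. Alternatives changed the pseudocount, filter, scaling, samples and treatment of copies; adding copies by length and the relations with Gm29216 were chosen after seeing the data.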

Additional observations from a re-analysis of the deposited data

Results flagged for a closer look

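A library standing apart within its genotype (gap to the nearest library over the range above Dixon's 95% critical value) was found for 6 values in the 50 groups examined. Chance flags about 1 in 20 where groups are independent and near normal. The groups here share the same 11 libraries, and gene levels were examined without a log, so the count cannot be set against that rate. In Il10-/- Tnfr1-/- replicate 1, mt-Co1 was 55092 against at most 33689 in the other libraries of its genotype, mt-Atp6 was 45834 against at most 24432, and mt-Nd3 was 4961 against at most 2543. In Il10-/- replicate 6 the log2 ratio of mt-Nd3 to mt-Co3 was -4.25, with the nearest Il10-/- library at -3.38. The copy Gm28437 was 352 in Il10-/- replicate 2, with the nearest at 63.4, and 931 in Il10-/- Tnfr1-/- replicate 3, with the nearest at 197.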

How the results depend on the processing

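No paired analysis was possible because the replicate numbers follow the order of the samples. None of the 13 genes passed the adjusted threshold under any of 20 alternatives (lowest adjusted p 0.291, mt-Atp8 without Il10-/- replicate 1); without Il10-/- replicate 2 the unadjusted limma p of mt-Atp8 was 0.0491 (adjusted p 0.387). Of all genes 0 were called, and between 0 and 2 with 1 library left out; the 2, both without Il10-/- replicate 2, were Tnfrsf1a and Il18, named after their values were seen. No ratio pair was called under any alternative (lowest adjusted p 0.193), and the relations with Gm29216 kept their direction and side of the threshold. The share without the rRNA genes was not run, since they have no rows. Depth is unknown and limits what low values show.

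The share difference changed sign without Il10-/- replicate 3 or Il10-/- Tnfr1-/- replicate 1 and ran from -0.31 to 2.89 points with 1 library left out. The other signs that changed belonged to log2 fold changes that were not called. With the first digit as covariate, or only names starting with 1 (the same estimates), values were 0.50 for mt-Co2, 0.24 for mt-Nd3, 0.60 for mt-Nd6, 0.44 for mt-Cytb, 0.84 for Gm29216, -0.00798 for Tfb2m, -0.00469 for Grsf1, 0.0658 for Ndufb2, 0.0496 for Ndufa6, 0.0842 for Atp5d, 0.0561 for Polrmt, -0.00987 for Tfam and -0.0473 for Lrpprc. Equal totals per library, with and without the mitochondrial genes, gave 0.0715 and 0.0974 for mt-Cytb, 0.0131 and 0.0390 for Gm29216, and 0.0632 and 0.0890 for Sdhd; they moved the median of all genes from 0.05 to 0.18 and 0.21. Median-ratio factors gave -0.0479 for mt-Co3 and -0.0132 for Gm10925. With 1 library left out, values ran from -0.096 to 0.26 for mt-Nd1, -0.0026 to 0.55 for mt-Nd2, -0.033 to 0.40 for mt-Atp6, -0.20 to 0.17 for mt-Co3, -0.046 to 0.39 for mt-Nd4, -0.29 to 0.13 for mt-Cytb, -0.22 to 0.31 for Gm10925, -0.39 to 0.070 for Gm29216, -0.014 to 0.48 for Gm28438 and -0.18 to 0.012 for Sdhd. Without a change of sign they ran from 0.25 to 0.99 for mt-Nd4l, 0.19 to 0.91 for mt-Nd5, 0.33 to 1.04 for mt-Atp8, 0.07 to 0.50 for mt-Co1, -0.53 to -0.14 for mt-Co2, -0.51 to -0.09 for mt-Nd3 and -0.46 to -0.01 for mt-Nd6, and log2 ratio differences from 0.30 to 0.66 for mt-Nd4l over mt-Nd4 and -1.11 to -0.40 for mt-Nd6 over mt-Nd5. The cause was not tested.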
